A study of Mus musculus with 6 samples.

Results

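The adenylate cyclase family in the olfactory mucosa was described from RNA-Seq of wild-type mice and mice lacking Rtp1 and Rtp2. Its members were the 10 genes Adcy1 to Adcy10, found by their symbols after removal of the number that marks a gene's second and later transcripts, and they made up 10 of the 24661 genes in the files and 18 of the 38041 transcripts. All 10 had counts in every mouse. The wild-type group held 3 mice (Rtp1+/+;Rtp2+/+) and the RTP1,2DKO group held 3 mice homozygous for knockout alleles of both genes (Rtp1-/-;Rtp2-/-), all 21 days old and of the C57BL/6 strain according to the labels. According to the methods they were littermates matched for sex, 2 males and 1 female per genotype, and the genes were knocked out one after the other in ES cells of mixed 129/B6 origin. The labels name the tissue as olfactory epithelium, and the methods as the whole mucosa with the tissue around the epithelium. RTP1 and RTP2 are accessory proteins that carry odorant receptors to the cell surface.

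Adenylate cyclases make cAMP from ATP. The membrane-bound ones are switched on or off by G protein alpha subunits and differ in how they answer to calcium, calmodulin and the G protein beta-gamma complex, and Adcy10 encodes a soluble cyclase driven by bicarbonate and calcium. In the cilia of a mature olfactory sensory neuron (OSN), an odorant receptor activates the alpha subunit encoded by Gnal, this activates type III adenylate cyclase (the product of Adcy3), and the cAMP opens the channel built from Cnga2, Cnga4 and Cngb1. Calcium entering through that channel opens the chloride channel Ano2.

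In these mucosae Adcy3 was the most abundant cyclase transcript in both genotypes. By mean TPM it stood above Adcy6, the next in order, 5.45-fold in wild-type mice and 1.94-fold in RTP1,2DKO mice. Adcy3 was also the only member that differed between genotypes past the threshold. Its normalized count in RTP1,2DKO mice was 0.376 of that in wild-type mice. The other membrane cyclases apart from Adcy8 had estimated log2 fold changes between -0.08 and 0.09, Adcy8 and Adcy10 were lower in estimate but rested on few counts, and none of these 9 genes passed edgeR's test or that of DESeq2, with Adcy8 alone at an unadjusted p under 0.05.

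The total estimated count lay between 31125410 and 41636996 per mouse, and the size factors between 0.907 and 1.15. A normalized count is the estimated count of a gene divided by the mouse's size factor. Rtp1 had 20522, 25301 and 13543 normalized counts in wild-type replicates 1 to 3 and 90.6, 85.5 and 108.8 in RTP1,2DKO replicates 1 to 3, and Rtp2 had 8497, 9510 and 7157 against 58.0, 26.2 and 51.0. Both deleted genes were therefore low in every mouse labelled RTP1,2DKO. Omp, the marker protein of mature OSNs, had 60014 to 67308 normalized counts in wild-type mice, so the tissue carried the defining transcript of the olfactory epithelium. The 4 nasal gland markers summed to between 1791503 and 5919041 in wild-type mice and between 2581633 and 5709940 in RTP1,2DKO mice. That sum differed more than 2-fold between mice of 1 genotype, and since TPM values share a fixed total, genotypes were compared on normalized counts and TPM was used to order genes within a group.

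Adcy3 lies on the plus strand of chromosome 12, from 4133103 to 4213525 in GRCm38. The files hold 3 transcripts of it, of 4348, 4668 and 4727 bases, named Adcy3, Adcy3_1 and Adcy3_2. In GENCODE M21 the transcripts nearest in length are Adcy3-201 with 4348 bases, Adcy3-204 with 4672 and Adcy3-207 with 4728, and this match by length is the only link between the names in the files and the annotation. Adcy3-201 begins at 4134153, where exon 2 of Adcy3-207 also begins, and the others begin upstream, at 4133402 and 4133397, with a noncoding first exon. The 30 bases before that point, chr12:4134123-4134152 on the plus strand of GRCm38.p6, are shown because they lie where the transcripts part at their 5′ end, and the capitals mark both AG dinucleotides after which an exon is annotated to start, at 4134147 in Adcy3-204 and at 4134153 in Adcy3-207:

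Adcy3 exon 2 edge: tgtccttagccatgtccttttaAGttgcAG

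Every 31-base word of Adcy3-201 also occurs in at least 1 of the others, whereas 0.7% of the words of Adcy3-204 and 2.6% of those of Adcy3-207 occur in that transcript alone. The second difference lies in the coding sequence. Exon 15 of Adcy3-201 starts at 4208577 with the bases CAG (chr12:4208577-4208579), whereas the matching exon of Adcy3-207 starts at 4208580, 3 bases later. The sequences around this edge, from GENCODE M21, carry the 3 bases in capitals:

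Adcy3-201: atggcactgacagCAGgctgcccctggtg

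Adcy3-207: atggcactgacaggctgcccctggtg

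The 3 GENCODE transcripts have 4288 words in common, and a read made of these words alone does not tell them apart.

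Levels within the family were compared as TPM, which divides counts by transcript length. Adcy3 had 143, 126 and 78.9 TPM in wild-type replicates 1 to 3 (mean 116 ± 33.3 SD, n = 3) and 42.5, 35.6 and 31.5 TPM in RTP1,2DKO replicates 1 to 3 (mean 36.5 ± 5.59 SD, n = 3). By mean TPM it ranked 706th of all genes in the files in wild-type mice and 2246th in RTP1,2DKO mice. Adcy6, a cyclase inhibited by calcium and present in many tissues, came second with 26.5, 19.9 and 17.4 TPM in wild-type mice and 20.0, 18.9 and 17.4 in RTP1,2DKO mice. The gap between Adcy3 and Adcy6 was 5.45-fold in wild-type mice and 1.94-fold in RTP1,2DKO mice, and in neither group did the 2 genes' ranges over mice overlap.

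Below them stood a group of cyclases at a few TPM. In wild-type mice the means were 6.23 ± 3.35 TPM for Adcy5, the close relative of Adcy6 that is also inhibited by calcium, 6.13 ± 1.77 for Adcy7 and 4.52 ± 0.743 for Adcy4 (SD, n = 3 each). Adcy5 and Adcy7 overlapped in range, as did Adcy7 and Adcy4, and the order of Adcy5 and Adcy7 differed between wild-type mice, with Adcy5 above Adcy7 in 1 of 3. Adcy2 followed with 3.13 ± 0.6 TPM and Adcy9 with 2.67 ± 0.652, overlapping in range. Adcy2, Adcy4 and Adcy7 encode the cyclases that the beta-gamma complex can stimulate, and Adcy9 encodes the membrane cyclase that responds poorly to forskolin.

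The lowest 3 were Adcy1, Adcy8 and Adcy10. Adcy1 and Adcy8, which like Adcy3 belong to the cyclases regulated by calcium and calmodulin, had 0.926 ± 0.262 and 0.42 ± 0.0741 TPM in wild-type mice (SD, n = 3 each). Adcy10 had 0.162, 0.205 and 0.0571 TPM in wild-type replicates 1 to 3. These 3 did not overlap with their neighbours in the order. In RTP1,2DKO mice the neighbours that overlapped were again Adcy5 with Adcy7, Adcy7 with Adcy4 and Adcy2 with Adcy9, at means of 5.28, 5.03, 4.08, 2.6 and 2.28 TPM for Adcy5, Adcy7, Adcy4, Adcy2 and Adcy9. All 10 genes held the same place in the order of mean TPM in both genotypes.

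**Figure D1:**
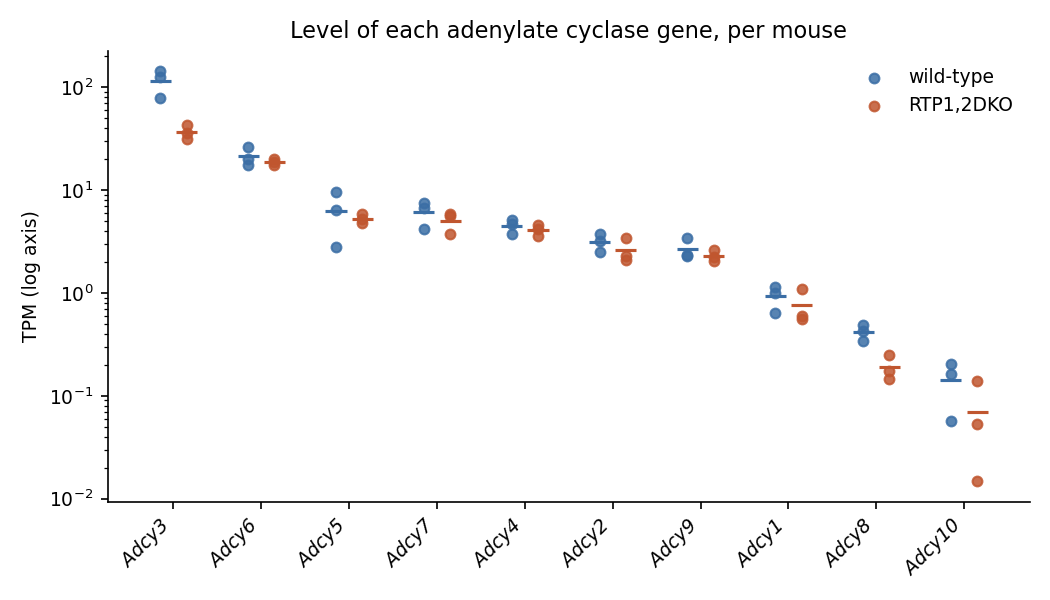
TPM of each adenylate cyclase gene on a log axis, 1 point per mouse (3 wild-type, 3 RTP1,2DKO), with a bar at each group mean and genes ordered by wild-type mean. Adcy3 stands above the rest in both groups, at 78.9 to 143 TPM in wild-type and 31.5 to 42.5 TPM in RTP1,2DKO mice, and the order of the 10 means is the same in both.

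The share of Adcy3 in the family's summed TPM is free of the scale differences between libraries. It was 71.8%, 73.2% and 69.9% in wild-type replicates 1 to 3 and 49.3%, 47.6% and 47.8% in RTP1,2DKO replicates 1 to 3. Every RTP1,2DKO mouse was below every wild-type mouse, with a difference of -23.4 percentage points between the means (71.6 ± 1.64 against 48.2 ± 0.941, SD, n = 3 each). The exact two-sided permutation test gave p = 0.1, the smallest that 3 mice against 3 allow. Adcy6 took 13.3%, 11.6% and 15.4% of the family's TPM in wild-type mice and 23.2%, 25.3% and 26.5% in RTP1,2DKO mice (exact permutation p = 0.1), a share that moves with that of Adcy3 since the shares add up to the whole.

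Summed per kilobase of effective transcript length, the normalized counts of the 10 genes came to 5751, 4642 and 4684 in wild-type replicates 1 to 3 and to 2672, 2907 and 2835 in RTP1,2DKO replicates 1 to 3. The RTP1,2DKO mean was 0.558 of the wild-type mean, without overlap (exact permutation p = 0.1). Without Adcy3, the other 9 summed to 1621, 1245 and 1409 in wild-type mice and to 1354, 1524 and 1479 in RTP1,2DKO mice. These groups overlapped, and their means had a ratio of 1.02 (exact permutation p = 0.9).

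In the test across genes, 1 of 10 members was lower in RTP1,2DKO with an adjusted p under 0.05 and none was higher, where 3.15% of the 22152 genes tested were lower and 0.46% higher. The median log2 fold change over all genes tested was 0.016. Adcy3 had 15889, 13012 and 12652 normalized counts in wild-type replicates 1 to 3 and 5090, 5303 and 5210 in RTP1,2DKO replicates 1 to 3. Each RTP1,2DKO mouse was below each wild-type mouse, and the spread within RTP1,2DKO (SD 107.1) was small beside that within wild-type mice (SD 1774), where replicate 1 was the highest. The log2 fold change was -1.41 (SE 0.13, 95% interval -1.69 to -1.14), with an adjusted p of 4.8e-05 by edgeR's quasi-likelihood test. Paired by replicate number, the log2 ratios were -1.64, -1.29 and -1.28, all of 1 sign. In a bulk sample, fewer cells of a type and less RNA per cell cannot be told apart.

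**Figure D2:**
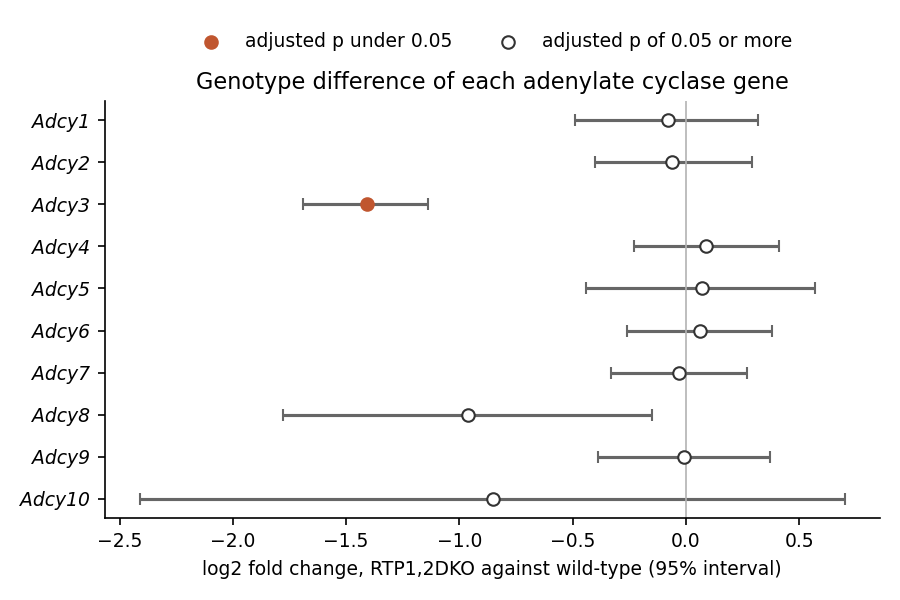
Log2 fold change of each adenylate cyclase gene, RTP1,2DKO against wild-type, from edgeR's quasi-likelihood fit over 22152 genes, with 95% intervals as bars (3 mice per group). The filled point is Adcy3 at -1.41, the only member with an adjusted p under 0.05, and the widest intervals belong to Adcy8 and Adcy10.

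Reads of Adcy3 can be shared with a neighbour. Its exons overlap by 1380 bases with those of Cenpo, a gene for a centromere protein on the opposite strand, and 1270 of the 4318 words of 31 bases in Adcy3-201 (29.4%) also occur in a Cenpo transcript on either strand. Cenpo had 1093, 1163 and 1036 normalized counts in wild-type replicates 1 to 3 and 574.3, 628.8 and 775.1 in RTP1,2DKO replicates 1 to 3, again without overlap (log2 fold change -0.74, SE 0.14, adjusted p = 0.009 by edgeR). How kallisto was set for strand is not given in the sources used here, so part of the Cenpo count may be reads of Adcy3 or the reverse, and this was not tested. With the Cenpo counts added to Adcy3, the log2 fold change was -1.35 (adjusted p = 5.9e-05). For Adcy6 and Adcy2, antisense transcripts without a row in the files share 605 and 189 exon bases, and 91.7% and 96.2% of their words were found in no other gene. In each of the remaining members at least 99.5% of words were found in no other gene.

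Of the 3 Adcy3 transcripts, the one of 4348 bases took most of the estimated count in every mouse. It had 13167, 11559 and 10018 normalized counts in wild-type replicates 1 to 3 and 4051, 4589 and 4403 in RTP1,2DKO replicates 1 to 3. Its share of the gene was 83.6% ± 4.87 in wild-type and 83.5% ± 3.57 in RTP1,2DKO mice (SD, n = 3 each, exact permutation p = 1). The groups did not overlap in its count, while its share ranged over nearly the same values in both genotypes. The log2 fold change was -1.41 (SE 0.13, 95% interval -1.72 to -1.1) and the adjusted p, over 33023 transcripts, was 0.063 by edgeR's quasi-likelihood test, so it did not pass. In that test 0.0212% of transcripts (7 of 33023) were lower and none of the 3 Adcy3 transcripts was among them. On simulated counts the test missed most changed transcripts, so a transcript not past the threshold cannot be read as unchanged. The 4348-base transcript passed after a filter on low counts (adjusted p = 0.048 by edgeR) and in DESeq2, most of whose transcript calls on simulated counts were false. It did not pass with TMM size factors or with the replicate number as a block.

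Both longer transcripts, whose nearest GENCODE transcripts in length carry the noncoding first exon, varied widely between mice of the same genotype. Adcy3_1 had 1438, 85.8 and 506.3 normalized counts in wild-type replicates 1 to 3 and 146.3, 624.7 and 369.5 in RTP1,2DKO replicates 1 to 3 (log2 fold change -0.83, SE 1.0, adjusted p = 0.91 by edgeR). Adcy3_2, nearest in length to the transcript that lacks the CAG, had 1283, 1368 and 2127 against 892.1, 88.8 and 438.1 (log2 fold change -1.75, SE 0.77, adjusted p = 0.7 by edgeR). The groups overlapped for the former and not for the latter. Since Adcy3-201 has no word of its own, the division of reads among the 3 is an estimate, and the files carry no measure of its error.

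**Figure D3:**
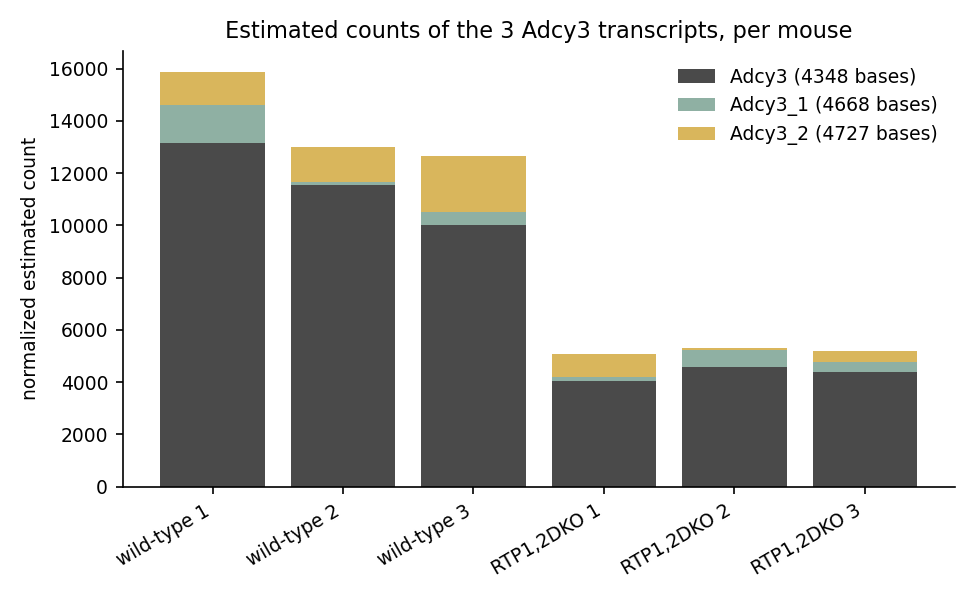
Normalized estimated counts of the 3 Adcy3 transcripts, stacked, for each wild-type and RTP1,2DKO mouse. The 4348-base transcript makes up most of every bar, and the division between the 2 longer transcripts changes from mouse to mouse within a genotype.

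The difference in Adcy3 was set beside that of mature OSN markers, which are expressed in the same neurons. All 6 markers of that list were lower in RTP1,2DKO, and their median log2 fold change was -1.12. The largest was that of Stoml3, a stomatin-like protein of OSN cilia (log2 fold change -2.0, adjusted p = 4.3e-05 by edgeR), and the smallest that of Gfy, which encodes a Golgi protein of OSNs (-0.56, adjusted p = 0.031 by edgeR). Omp had 67308, 60014 and 67100 normalized counts in wild-type replicates 1 to 3 and 27622, 36678 and 39605 in RTP1,2DKO replicates 1 to 3 (log2 fold change -0.9, SE 0.15, adjusted p = 0.003 by edgeR). The 6 markers summed to between 110616 and 111429 in wild-type mice and between 47802 and 57693 in RTP1,2DKO mice.

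Adcy3 minus the mean of the 6 markers, on the log2 scale of normalized counts, was 0.67, 0.33 and 0.38 in wild-type replicates 1 to 3 and 0.2, 0.19 and 0.21 in RTP1,2DKO replicates 1 to 3. The RTP1,2DKO values lay within 0.02 of each other and below all wild-type values, and wild-type replicate 1 stood highest. The means differed by -0.26 (0.46 ± 0.18 against 0.2 ± 0.01, SD, n = 3 each), an Adcy3 level of 0.836 relative to the markers, with an exact permutation p of 0.1. Without wild-type replicate 1 the difference was -0.15, with an exact permutation p of 0.2, the smallest that 2 mice against 3 allow. Against Omp alone the difference was -0.49 and the groups again did not overlap (exact permutation p = 0.1).

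**Figure D4:**
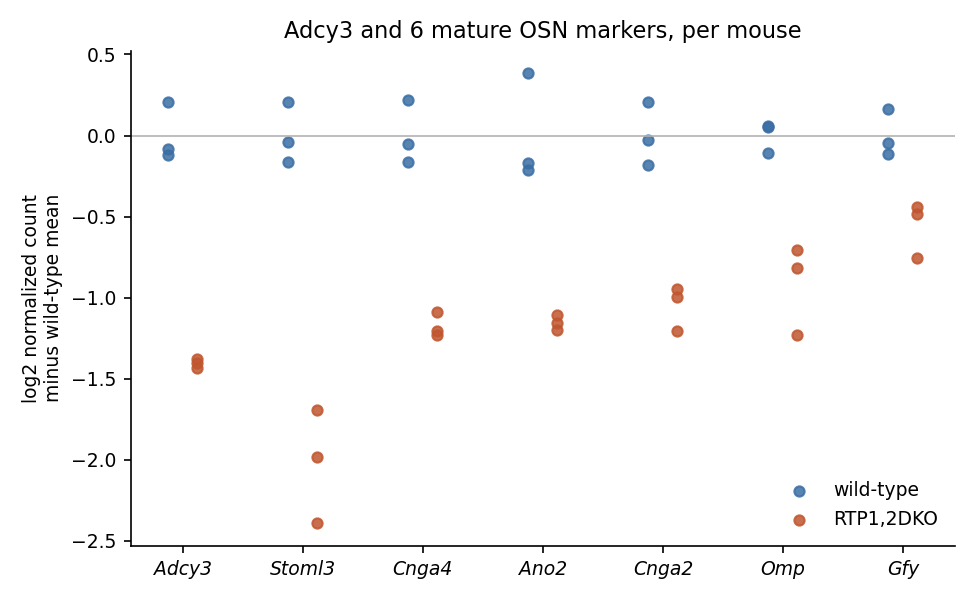
Log2 normalized count of Adcy3 and of 6 mature OSN markers in each mouse, minus the wild-type mean of that gene (3 wild-type, 3 RTP1,2DKO). All 7 genes lie lower in every RTP1,2DKO mouse, with Adcy3 between Stoml3 at -2.0 and Cnga4 at -1.18 in log2 fold change.

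Summed markers of immature OSNs and of the basal cells they arise from were higher in RTP1,2DKO mice. The 6 immature OSN markers summed to between 25815 and 32066 normalized counts in wild-type and between 34957 and 37486 in RTP1,2DKO mice. Past the threshold and higher were 2 of 6 (Gap43 and Gng8), where 0.46% of all genes tested were. Higher without overlap were 4 of 6 and lower 0, where 7.17% and 9.24% of all genes tested had such patterns. The 6 markers of globose basal and cycling cells summed to between 5944 and 7179 against between 8434 and 10545, with 0 of 6 past the threshold in edgeR, 6 of 6 at an unadjusted p under 0.05 and 1 of 6 called by DESeq2. All 6 of 6 were higher without overlap, beside the same 7.17% of all genes tested. The 3 erythroid markers had 0 of 3 past the threshold in edgeR and in DESeq2 and 3 of 3 at an unadjusted p under 0.05 in edgeR, and their sums overlapped (6646 to 13498 against 11631 to 22723). The 6 respiratory ciliated cell markers had 0 of 6 past the threshold in edgeR and 1 of 6 called by DESeq2. In edgeR, 2 of 6 had an unadjusted p under 0.05 (Tekt1 and Ccdc39, both lower). Lower without overlap were 3 of 6 and higher 0, where 9.24% and 7.17% of all genes tested had such patterns. Their sums overlapped (12623 to 19206 against 12061 to 13390). In 15 of 18 cell type lists no marker passed in edgeR. The part of these differences in cell types in the Adcy3 result was not tested.

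The 5 genes whose pattern over the 6 mice was most like that of Adcy3, by Pearson's r of log2(normalized count + 1) among 13899 genes with a mean of at least 100 normalized counts, were Faim2 (r = 0.9993), Mslnl (0.9976), Stom (0.9974), Mmp24 (0.9972) and Gabbr1 (0.9966). The 6 points share the gap between the genotypes, and r is given as a description. Faim2, an inhibitor of Fas-driven cell death in neurons, had 7284, 6120 and 5539 normalized counts in wild-type replicates 1 to 3 and 2094, 2171 and 2138 in RTP1,2DKO replicates 1 to 3. As with Adcy3, wild-type replicate 1 was highest and the RTP1,2DKO mice lay close together. Among the mature OSN markers, Ano2 had the highest r with Adcy3 (0.984) and Gfy the lowest (0.874).

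The other two cyclases regulated by calcium and calmodulin were not past the threshold. Adcy1 had 385.8, 315.8 and 308.7 normalized counts in wild-type replicates 1 to 3 and 397.3, 274.7 and 283.2 in RTP1,2DKO replicates 1 to 3. Replicate 1 was the highest of its group in both genotypes, and the groups overlapped (log2 fold change -0.08, SE 0.19, 95% interval -0.49 to 0.32, adjusted p = 0.93 by edgeR). Adcy8, best known from neurons of the brain, had 62.1, 40.1 and 78.3 against 34.8, 25.3 and 32.3 normalized counts. Every RTP1,2DKO mouse was below every wild-type mouse, and the log2 fold change was -0.96 (SE 0.37, 95% interval -1.78 to -0.15), with an unadjusted p of 0.024 and an adjusted p of 0.29 by edgeR's quasi-likelihood test.

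Thus Adcy3 and Adcy8 were the 2 members of 10 without overlap and lower in RTP1,2DKO, and 0 of 10 were higher without overlap, where 9.24% and 7.17% of all genes tested had such patterns. Adcy8 rested on 29 to 71 counts per mouse, spread over 3 transcripts. The 5 markers of olfactory bulb and brain neurons also had a lower sum in RTP1,2DKO, of between 743.7 and 911.2 normalized counts in wild-type and between 563.5 and 667.0 in RTP1,2DKO mice, although not each marker was lower. Of that list Gad1 alone, 1 of 5, passed the threshold (log2 fold change -1.18, adjusted p = 0.017 by edgeR), while Gad2 had 266.9, 287.2 and 276.7 against 357.2, 314.8 and 294.0 normalized counts, higher in every RTP1,2DKO mouse (log2 fold change 0.22, adjusted p = 0.71 by edgeR). Neurod6 lay between 2.86 and 11.0 normalized counts. The part of these cells in the Adcy8 values was not tested.

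The pair inhibited by calcium showed no difference past the spread between mice. Adcy6 had 4189, 2952 and 3948 normalized counts in wild-type replicates 1 to 3 and 3403, 4037 and 4110 in RTP1,2DKO replicates 1 to 3 (log2 fold change 0.06, SE 0.15, 95% interval -0.26 to 0.38, adjusted p = 0.94 by edgeR). Adcy5 had 1231, 779.5 and 523.7 against 818.8, 909.6 and 925.1, so that the wild-type mice spanned a range far wider than the RTP1,2DKO mice and on both sides of it. Its log2 fold change was 0.07 (SE 0.23, 95% interval -0.44 to 0.57, adjusted p = 0.96 by edgeR), and it was 0.44 without wild-type replicate 1 and -0.18 without wild-type replicate 3, neither past the threshold. Adcy5 lies 11.7 Mb and Adcy9 19.0 Mb from Rtp1 on chromosome 16, so both sit on the chromosome that carries the knockout alleles.

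The cyclases that the beta-gamma complex stimulates also showed no difference past the threshold. Adcy2 had 390.0, 313.9 and 380.4 normalized counts in wild-type replicates 1 to 3 and 383.6, 327.9 and 331.2 in RTP1,2DKO replicates 1 to 3 (log2 fold change -0.06, 95% interval -0.4 to 0.29). Adcy4 had 383.8, 399.8 and 439.9 against 402.5, 463.9 and 435.1 (log2 fold change 0.09, 95% interval -0.23 to 0.41). Adcy7, prominent in blood and immune cells, had 1036, 1100 and 927.2 against 965.2, 1162 and 868.2 (log2 fold change -0.03, 95% interval -0.33 to 0.27). In all 3 the groups overlapped, and the adjusted p lay between 0.89 and 0.97 by edgeR. The intervals do not exclude log2 differences as far as -0.4 for Adcy2, 0.41 for Adcy4 and -0.33 for Adcy7. One of the 4 Adcy7 transcripts, that of 5937 bases, took at least 96.6% of the gene's count in every mouse.

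Adcy9 had 709.6, 446.5 and 693.5 normalized counts in wild-type replicates 1 to 3 and 581.7, 625.3 and 629.1 in RTP1,2DKO replicates 1 to 3. Wild-type replicate 2 was the lowest mouse and the groups overlapped (log2 fold change -0.01, SE 0.17, 95% interval -0.39 to 0.37, adjusted p = 0.99 by edgeR). Its longer transcript, of 7840 bases, took 68.4% ± 13.2 of the gene in wild-type and 71.6% ± 5.52 in RTP1,2DKO mice (SD, n = 3 each, exact permutation p = 0.7). The soluble cyclase Adcy10 had 21.7, 25.8 and 11.0 against 20.0, 9.59 and 2.94 normalized counts. It rested on 3 to 27 counts per mouse, the groups overlapped, and the log2 fold change of -0.85 had a 95% interval from -2.41 to 0.7 (adjusted p = 0.76 by edgeR), so that a difference was not detectable at this depth.

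Around the cyclases, 13 of 76 genes in 7 lists of the cAMP pathway were lower in RTP1,2DKO past the threshold and 0 were higher. Over all genes tested, 3.15% were lower and 0.46% higher, so few higher calls could arise among 76 genes. Of the 76, 4 were higher at an unadjusted p under 0.05 in edgeR and 0 were higher past the threshold in DESeq2. Of the 13, 10 belonged to the olfactory transduction list, 10 of whose 16 genes passed, with a median log2 fold change of -0.93, and 13 of 16 passed with the replicate number as a block. They were Gnal, Cnga2, Cnga4, Cngb1, Ano2, Ric8b, Omp, Stoml3, Pde1c and Pde4a. After Stoml3, the lowest p-values were those of the channel subunits Cnga4 (2706, 3523 and 2924 against 1317, 1290 and 1429 normalized counts, log2 fold change -1.18) and Cngb1 (6032, 6951 and 6179 against 3141, 3088 and 2760, -1.09), each with an adjusted p of 0.00019 by edgeR. The genotypes did not overlap in these genes. Many genes of the list are typical of mature OSNs, as Adcy3 is, and their place in the list was chosen with earlier results of these data known.

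Upstream of the cyclases, Gnal was the only G protein alpha subunit of 7 to pass. Gnal had 57794, 52443 and 37804 normalized counts in wild-type replicates 1 to 3 and 28614, 26656 and 21955 in RTP1,2DKO replicates 1 to 3, without overlap (log2 fold change -0.94, SE 0.17, adjusted p = 0.0053 by edgeR). Gnas, which encodes the stimulatory subunit used in most other cells, had a log2 fold change of 0.27 (adjusted p = 0.54), Gnao1 one of -0.12 (adjusted p = 0.81) and Gnai3, an inhibitory subunit, one of 0.03 (adjusted p = 0.96, all by edgeR). Gnal and Adcy3, the stimulatory subunit and the cyclase of odour transduction, thus were both lower, while the broadly expressed Gnas and Adcy6 were not past the threshold.

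Among 9 cyclase regulators, Ric8b passed, a chaperone and exchange factor for the product of Gnal. It had 13427, 13846 and 10149 against 6725, 6758 and 6309 normalized counts (log2 fold change -0.92, SE 0.14, adjusted p = 0.0016 by edgeR). With the replicate number as a block, 2 genes of 9 passed in place of 1. Calm2, a calmodulin gene, had a log2 fold change of -0.31 (adjusted p = 0.32) and Cap1, a cyclase-associated protein that binds actin, one of 0.04 (adjusted p = 0.96, both by edgeR).

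Of 16 phosphodiesterases that break down cAMP, 3 were lower and none higher. Pde4a, the enzyme of OSN bodies and dendrites, had 9464, 7350 and 7554 against 3651, 4077 and 3775 normalized counts (log2 fold change -1.08, adjusted p = 0.00039 by edgeR), and Pde1c, the calcium-dependent enzyme of OSN cilia, 6797, 6890 and 4945 against 3081, 3153 and 2783 (-1.05, adjusted p = 0.00088 by edgeR). Pde7b had 13604, 11238 and 8385 against 6312, 6470 and 5100 (-0.89, adjusted p = 0.008 by edgeR). None of the 3 overlapped between genotypes. Pde4d had a log2 fold change of -0.46 (adjusted p = 0.13 by edgeR), and the median over the list was 0.01.

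Downstream, 0 of 9 protein kinase A subunits and inhibitors passed edgeR's test or that of DESeq2, and 1 had an unadjusted p under 0.05, with a median log2 fold change of -0.05. The most abundant, the regulatory subunit Prkar1a, had a log2 fold change of -0.02, Pkia one of 0.11, Prkacb one of -0.25 and Prkaca one of -0.05, with adjusted p-values from 0.52 to 0.99 by edgeR. Of 12 other effectors, 2 were lower and 0 higher in edgeR and in DESeq2. Among them was Hcn2, a channel gated by voltage and modulated by cAMP, with 2503, 2603 and 1866 normalized counts in wild-type replicates 1 to 3 and 1555, 1497 and 1411 in RTP1,2DKO replicates 1 to 3. The groups did not overlap (log2 fold change -0.64, SE 0.14, adjusted p = 0.019 by edgeR), and Hcn2 did not pass without wild-type replicate 2 or any 1 RTP1,2DKO replicate, with adjusted p-values up to 0.092. The transcription factor genes Creb1 and Atf1 had log2 fold changes of 0.03 and 0.15 (adjusted p = 0.96 and 0.76 by edgeR).

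As a neighbouring enzyme family, 0 of 11 guanylate cyclase genes passed edgeR's test, with a median log2 fold change of 0.11. The 4 most abundant were Gucy2c, Gucy1a3, Npr1 and Npr2, with log2 fold changes of 0.41, 0.06, 0.21 and 0.15 and adjusted p-values from 0.64 to 0.94 by edgeR. Gucy1b2 and Gucy2d were the 2 with an unadjusted p under 0.05 in edgeR (log2 fold change 1.0 with an adjusted p of 0.21, and 0.67 with an adjusted p of 0.39), and DESeq2 called none.

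**Figure D5:**
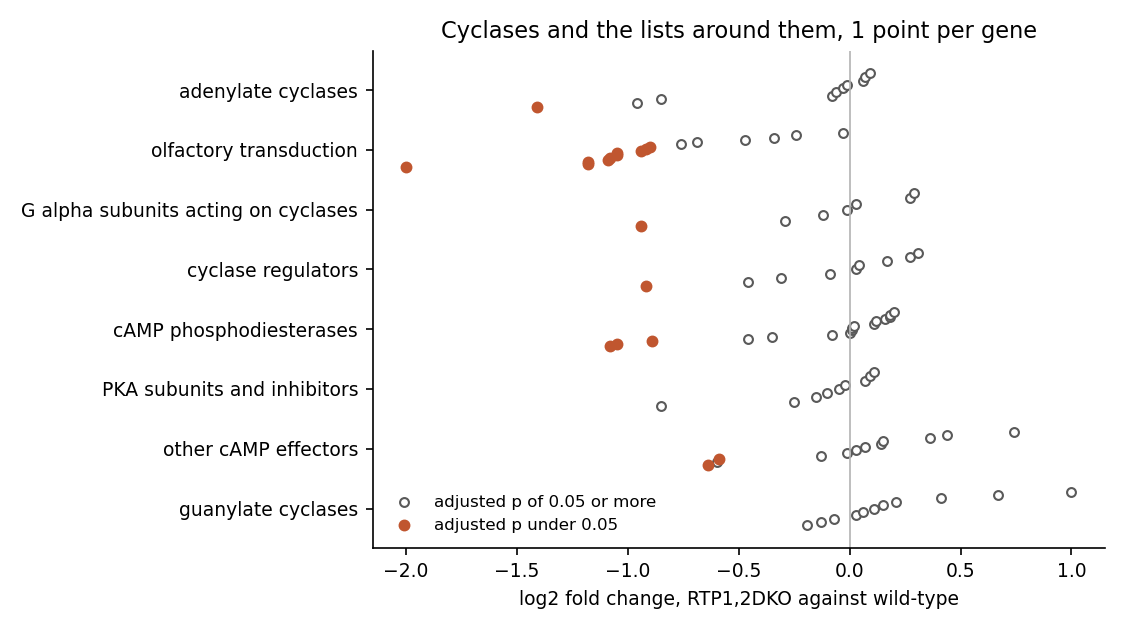
Log2 fold change, RTP1,2DKO against wild-type, of the 10 adenylate cyclases and of each gene in 7 lists around them, 1 point per gene. Filled points passed an adjusted p under 0.05 in edgeR's quasi-likelihood test, and all of them lie below 0, with 10 of 16 in the transduction list and none among the protein kinase A or guanylate cyclase genes.

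The promoters of the members were searched for motifs of factors known from OSNs. RefSeq windows from 250 bases before to 50 bases after a start, on GRCm38.p6, were given for 8 of the members (11 windows, 2 of them for Adcy3). On either strand, none of the 11 held the Ebf motif (TCCC and GGGA with any 2 bases between), the homeodomain motifs TAATTA or TAATTG, or the CREB motif TGACGTCA. Among all 32851 windows, 0.9%, 5.29%, 8.0% and 1.79% held them. Of the 16 genes in the olfactory transduction list, 11 had a window. The same search found no Ebf match in those either, and only TAATTG, in Cngb1 and Pde1c. A search for exact matches in windows this short cannot tell whether these factors act on a member. The later Adcy3 window ends just inside exon 2 and contains the splice edge printed above, with 7 CpG dinucleotides and 56.0% G and C, and the earlier one has 33 CpG and 68.7%. The median content of G and C over all windows was 52.7%.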

How the data were processed

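Olfactory mucosa RNA of 3 mice per genotype was sequenced as stranded libraries, for which the labels and the methods name different kits. The authors assigned reads with kallisto to mouse transcripts from the UCSC browser with extended odorant receptor models (build mm10 per the labels) and deposited an estimated count, a TPM value, a length and an effective length per transcript. The version and strand setting are not given in the sources used here.

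Estimated counts were summed per gene and rounded to whole numbers. The 22152 genes counted in any mouse were tested in R 4.3.3 with edgeR 4.0.16 (quasi-likelihood F-test, DESeq median-of-ratios size factors from DESeq2 1.42.0, Benjamini-Hochberg at 0.05), as were 33023 transcripts. A standard error is the log2 fold change over the root of F. Values per mouse were compared by exact two-sided permutation tests in Python 3.11.15 (scipy 1.17.1), whose smallest p for 3 against 3 is 0.1. Alternatives were TMM scaling, filterByExpr, the Wald test of DESeq2, a block for the replicate number, and leaving out each mouse. On simulated counts the share of false calls was above the nominal level in every test, and the transcript tests did worse than the gene tests, edgeR's in the changes recovered and DESeq2's in false calls.

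The methods describe sex-matched littermates but do not tie the replicate numbers to litters, so whether the numbers pair the mice is not known. Between mice of the same number, deviations from the group means correlated at 0.139, 0.179 and 0.103 for numbers 1 to 3. This was over 18133 genes with a mean of at least 10 normalized counts. These correlations are weak and do not settle the pairing, and the main fits did not use it.

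The members and lists were chosen with earlier results of these data known. All members, every Adcy3 transcript and up to 4 genes per pathway list are named, those past the threshold by lowest p first and then those of highest mean count, with the 5 genes most like Adcy3 and genes overlapping a member. Further genes named in the text were chosen after their values were seen. Adrbk2 of the transduction list stands as Grk3 in the files. Positions and 31-base words were read from GENCODE M21 on GRCm38, a different transcript set from that of the authors. Protein sequences were not used here, and some genes that the rule takes are not reported here.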

Additional observations from a re-analysis of the deposited data

How the results depend on the processing

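Adcy3 was lower in RTP1,2DKO past the threshold under every alternative tried, with log2 fold changes from -1.47 to -1.3 when 1 mouse was left out and an adjusted p of at most 0.0005, and it was the 1 member of 10 past it each time. Without both mice numbered 2, an alternative added after seeing the data, as was that with the Cenpo counts, the log2 fold change was -1.47. The number of pathway genes past the threshold ranged from 11 to 15 when 1 mouse was left out and from 13 to 17 otherwise, against 13. The list of other effectors fell from 2 to 1 without wild-type replicate 1 or RTP1,2DKO replicate 1 and to 0 without wild-type replicate 2 or RTP1,2DKO replicate 2 or 3, and 1 of 9 protein kinase A genes, Pkib, passed without wild-type replicate 1. The replicate block, and DESeq2, raised the cyclase regulators from 1 to 2 and the transduction list from 10 to 13, with Gnb1, Gng13 and Slc24a4. The block changed no call of a member, and Adcy9 was at 0.02 with it. The blocked difference of Adcy3 against the markers was -0.26 (exact permutation p = 0.25, the smallest for 3 pairs).

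The 4348-base Adcy3 transcript passed after filterByExpr (-1.41, adjusted p = 0.048) and in DESeq2 (-1.41, adjusted p = 8.1e-24), and did not pass with the block (adjusted p = 0.57). On simulated counts most transcript calls of DESeq2 were false and edgeR missed most changed transcripts. The changed transcripts were drawn only from those above a floor on the mean count, so the missed ones were not transcripts near 0 counts. False calls could come from transcripts of all levels. Both shares come from 1 simulated setting and do not tell whether the call of the 4348-base transcript is false. With 1 mouse left out, the log2 fold change of the 4348-base transcript ranged from -1.51 to -1.31. That of Adcy3_1 ranged from -1.39 to 0.36 (0.36 without wild-type replicate 1), and that of Adcy3_2 from -2.59 to -1.26. The share difference of Adcy3 ranged from -24.2 to -22.6 percentage points and was -24.3 by counts. The difference against the markers ranged from -0.33 to -0.15 and was -0.49 against Omp alone. By normalized counts per kilobase 8 of 10 places in the wild-type order were kept, with Adcy7 (190.0) above Adcy5 (188.0).

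Some members not past the threshold changed sign in estimate. With 1 mouse left out, Adcy1 ranged from -0.27 to 0.03, Adcy2 from -0.15 to 0.0, Adcy5 from -0.18 to 0.44, Adcy6 from -0.08 to 0.16, Adcy7 from -0.16 to 0.06 and Adcy9 from -0.2 to 0.1. Without both mice numbered 2, Adcy5 was at -0.01 and Adcy6 at -0.11. None passed in any of these fits, and the cause was not tested. Adcy8 and Adcy10 rested on 3 to 71 counts per mouse, and each group held 3 mice.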

Other observations

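One receptor that acts on cyclases and stood in none of the lists was looked at after its values were seen. Adcyap1r1, the receptor for the peptide PACAP, which stimulates adenylate cyclases, had 114.8, 182.2 and 163.2 normalized counts in wild-type replicates 1 to 3 and 59.0, 70.6 and 83.3 in RTP1,2DKO replicates 1 to 3. The groups did not overlap, and the log2 fold change was -1.11 (SE 0.26, adjusted p = 0.035 by edgeR's quasi-likelihood test). Its ligand gene Adcyap1 had 12.2 to 35.3 normalized counts in the 6 mice, with a log2 fold change of 0.46 (SE 0.56, adjusted p = 0.84 by edgeR).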
